A study of Mus musculus with 3 samples.

Results

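Broad H3K4me3 regions that carried no H3K27me3 were described in primordial germ cells (PGCs), from which eggs and sperm later form. Members were chosen by 2 measured properties, their width and their lack of overlap with H3K27me3: all H3K4me3 regions on chromosomes 1 to 19 that measured at least 4200 bp and shared no base with an H3K27me3 region. This gave 578 regions among 46685 autosomal H3K4me3 regions, out of 47928 in the whole list. The cells were GFP-positive cells sorted from pooled gonadal regions of E11.5 embryos, from an Oct4:GFP transgenic B6 line crossed to Swiss-Webster females, so the Oct4 reporter alone defines the population. Groups were 1 H3K4me3 precipitation and 1 H3K27me3 precipitation, each standing for 2 replicates, from aliquots of 104000 and 97000 cells. The input control was not analysed here. Marker genes could not be used to check the sorted cells, because regions were not assigned to genes here.

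H3K4me3, the trimethylated form of lysine 4 on histone H3, is placed by COMPASS-type methyltransferases around the start sites of active genes and at CpG-rich promoters. H3K27me3, the same modification of lysine 27, is placed by Polycomb repressive complex 2 at silent developmental genes. Most H3K4me3 peaks are short. Unusually broad ones are known from many cell types, where they often cover genes tied to the identity of the cell, and where both marks meet the chromatin is called bivalent.

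The deposited lists give positions on mouse build mm9 in 200-bp steps, with no read count or score. Depth behind any single region is therefore unknown. With 1 list per mark there is no error between replicates and no test, and every comparison is a description of these lists. Percentages carry 95% Wilson intervals and medians carry 95% binomial intervals. Both intervals reflect the counting of regions alone and take each region as independent. Neighbouring regions often share neighbours, so these intervals are too narrow wherever neighbours are counted. Regions close together can also share their nearest H3K27me3 region, so intervals for distances to H3K27me3 are too narrow too. No genome of build mm9 was used here, so no gene was named and no sequence is shown.

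Together the broad H3K27me3-free regions covered 3.17 Mb. They were 1.24% of the autosomal H3K4me3 regions and 6.50% of their length. Width and freedom from H3K27me3 made the selection, so both are given only to describe it. Widths ran from 4.2 to 13.8 kb with a median of 5000 bp and quartiles of 4400 and 5950 bp. Widths were concentrated near the minimum: 271 measured 4200 to 4800 bp, 162 measured 5000 to 5800 bp, 103 measured 6000 to 7800 bp, 27 measured 8000 to 9800 bp and 15 measured 10000 bp or more. Exactly at the minimum there were 85 members, and 105 H3K27me3-free regions stood 1 step below it at 4000 bp. Another 123 autosomal regions of 4200 bp or more overlapped H3K27me3, so 82.5% (79.5 to 85.1%) of all 701 broad regions were free of it. Those 123 were usually overlapped over much of their length, with a median of 64% of the width under H3K27me3, and 37 were wholly covered. Of all autosomal H3K4me3 regions, 18.5% (18.2 to 18.9%) overlapped H3K27me3. By width, the share free of it was 87.9% at 200 bp and 82.6% at 400 to 800 bp. In the classes from 1000 to 4000 bp it was 75.4 to 79.7%, with 79.7% (77.3 to 81.9%) at 3200 to 4000 bp. It was 80.9% (76.3 to 84.7%) at 4200 to 4800 bp and 80.2% (74.2 to 85.1%) at 5000 to 5800 bp. Only at 6000 bp or more was it clearly higher, at 88.4% (82.6 to 92.5%).

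For comparison, H3K27me3-free regions of 1000 to 4000 bp are called medium (14489 regions) and those under 1000 bp narrow (22981 regions).

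Broad H3K27me3-free regions stood in neighbourhoods crowded with other H3K4me3 regions. A median of 8 other H3K4me3 regions (quartiles 5 and 12) lay within 50 kb of the edges, against 5 around broad regions with H3K27me3, 5 around medium regions and 4 around narrow ones. The mean was 8.45 ± 4.60 (SD over regions) for the broad H3K27me3-free regions, and 5.57 ± 4.35 for medium regions. The spreads of single regions thus overlapped widely. The average was higher than for medium regions on 19 of 19 autosomes. Only 8 of the 578 broad regions (1.38%, 0.703 to 2.71%) had no other H3K4me3 region within 50 kb, compared with 7.53% (7.11 to 7.97%) of medium regions.

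The number of neighbours was higher in wider classes from 3200 bp upward. Among H3K27me3-free regions the median number of neighbours was 5 at 200 bp, 4 at 400 to 800 bp, 5 at 1000 to 2000 bp and 4 at 2200 to 3000 bp. It was then 6 at 3200 to 4000 bp, 7 at 4200 to 4800 bp, 9 at 5000 to 5800 bp and 10 at 6000 bp or more. Quartiles of the widest class were 6 and 13, and those of the 2200 to 3000 bp class were 2 and 8. These width classes were set after the values were seen.

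**Figure D1:**
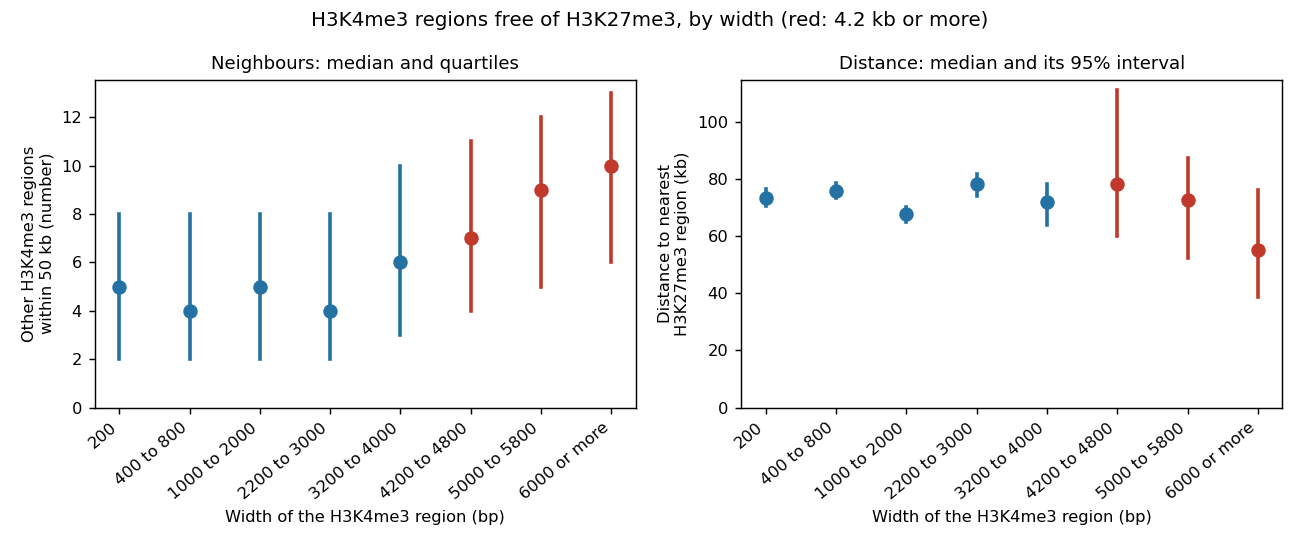
H3K4me3 regions free of H3K27me3 by width (x axis, bp): at left the number of other H3K4me3 regions within 50 kb (points, medians; lines, quartiles), at right the distance to the nearest H3K27me3 region in kb (points, medians; lines, 95% intervals of the median). Red marks regions of 4.2 kb or more. Median neighbour numbers are 4 or 5 up to 3000 bp and reach 10 at 6000 bp or more, while the distance medians lie between 55.2 and 78.2 kb with overlapping intervals among the 3 widest classes.

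Many of these neighbours sat right beside the broad region. The nearest other H3K4me3 region was a median of 2.4 kb away (quartiles 1 and 6 kb), against 3.4 kb for broad regions with H3K27me3, 6.8 kb for medium regions and 5.6 kb for narrow ones. On 19 of 19 autosomes the median was shorter for the broad H3K27me3-free regions than for medium regions. A neighbour lay within 5 kb for 413 of them (71.5%, 67.6 to 74.98%), against 56.1% (47.3 to 64.6%) of broad regions with H3K27me3 and 43.5% (42.7 to 44.4%) of medium regions. Such close neighbours stood on both sides in 159 (27.5%) and on 1 side in 254 (43.9%). Within 1 kb there was a neighbour in 167 (28.9%). Of broad regions with H3K27me3, 39 of 123 (31.7%, 24.1 to 40.4%) had a neighbour so close, and of medium regions 13.9%. With H3K4me3 regions less than 1 kb apart joined, the same rule gave 823 members in place of 578.

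The higher number of neighbours was also seen farther from the edges. From 5 to 20 kb the broad H3K27me3-free regions averaged 2.64 neighbours, against 1.74 for medium regions, and from 20 to 50 kb they averaged 4.51 against 3.15. With every neighbour within 5 kb left out, the medians were 7 for the broad H3K27me3-free regions and 4 for medium ones. Other H3K4me3 regions covered 13.5% of the sequence 2 to 5 kb from the edges of the broad H3K27me3-free regions, against 10.8% for broad regions with H3K27me3 and 6.78% for medium regions. The neighbours themselves were of like size around broad and medium regions. Their median width was 800 bp around broad H3K27me3-free regions and 800 bp around medium regions, and regions of a single 200-bp step made up 26.3% of neighbours around the broad regions and 25.1% around medium ones.

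Pooled over all regions, the distance to H3K27me3 was close to that of medium regions. The nearest H3K27me3 region lay a median of 68.8 kb away (95% interval 56.6 to 82 kb), against 70.6 kb (68.6 to 72.4 kb) for medium regions and 74.8 kb (73 to 76.6 kb) for narrow regions. The broad regions had the larger median on 9 of 19 autosomes. Within 50 kb, 342 of 578 (59.2%, 55.1 to 63.1%) had no H3K27me3 at all, which was close to the 59.3% of medium and 59.8% of narrow regions. Both lay inside H3K27me3-free intervals of similar length: the median interval was 331 kb around the broad regions and 346 kb around medium ones.

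**Figure D2:**
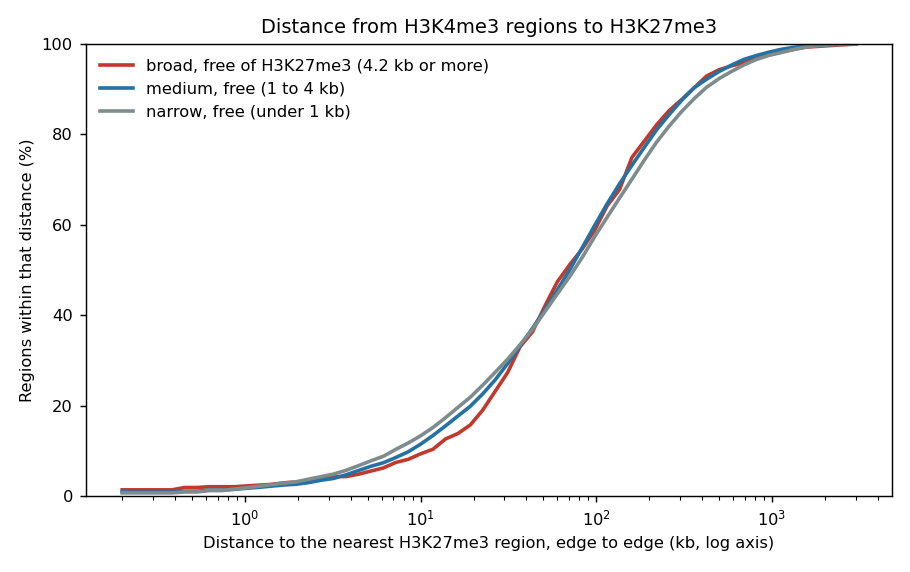
Cumulative share of H3K4me3 regions (y axis, %) whose nearest H3K27me3 region lies within a given edge-to-edge distance (x axis, kb, log scale), for broad, medium and narrow H3K27me3-free regions. Between 5 and 30 kb the broad regions run below the others, with 9.52% of them within 10 kb against 11.7% of medium and 13.6% of narrow regions, and beyond 50 kb they meet the curve of the medium regions.

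Close to the broad regions the picture differed. H3K27me3 within 10 kb was found for 55 of 578 (9.52%, 7.38 to 12.2%), against 11.7% (11.2 to 12.2%) of medium regions and 13.6% (13.1 to 14.0%) of narrow ones. The intervals of broad and medium regions overlapped. Members had to lack H3K27me3 over a greater width than the other classes, which may build in part of a lower share. Coverage of the flanks by H3K27me3 was 0.779% in the first kb and 1.02% in the next beside the broad regions, against 0.520% and 0.901% beside medium regions. These shares of sequence carry no interval. They include 3 members near the start of chromosome 11 that directly abut H3K27me3, and values without those were not calculated. From 2 to 20 kb coverage by H3K27me3 was lower beside the broad regions. It was 1.71% from 5 to 10 kb and 2.46% from 10 to 20 kb beside the broad regions, against 2.17% and 2.98% beside medium regions. Farther out the order turned again. H3K27me3 covered 4.59% from 20 to 50 kb and 6.04% from 50 to 100 kb around the broad regions, against 3.78% and 4.49% around medium regions.

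**Figure D3:**
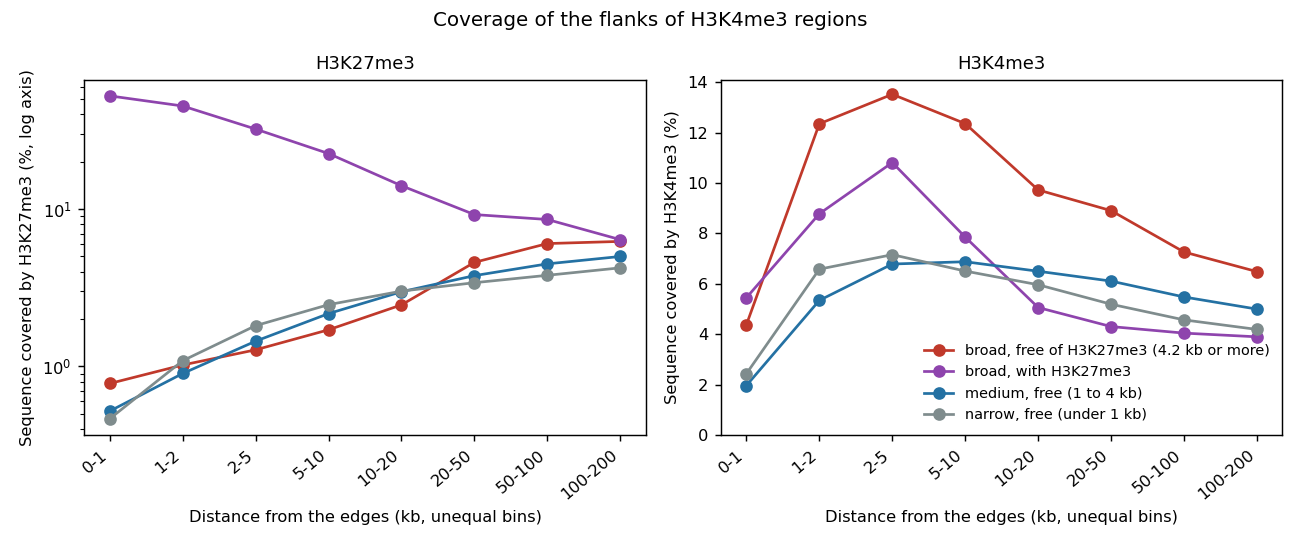
Share of flanking sequence covered by H3K27me3 (left, %, log axis) and by other H3K4me3 regions (right, %) in bins of distance from the edges (x axis, kb). Lines are the 4 classes of H3K4me3 region. Around broad H3K27me3-free regions H3K27me3 rises with distance to 6.24% at 100 to 200 kb and crosses that of the medium regions at 2 points: it is higher up to 2 kb, lower from 2 to 20 kb and higher from 20 kb on. H3K4me3 coverage around them peaks at 13.5% at 2 to 5 kb. The H3K27me3 values up to 2 kb include 3 members near the start of chromosome 11 that directly abut H3K27me3.

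Distance was then compared at like numbers of neighbours. Regions with more H3K4me3 neighbours lay nearer to H3K27me3 in both classes. Among regions with 0 to 4 neighbours the median distance was 143 kb (104 to 165 kb) for the 132 broad regions and 101 kb (97.6 to 105 kb) for medium ones. With 5 to 8 neighbours it was 79.2 kb (57.2 to 111 kb) for broad and 58.6 kb (55.6 to 62 kb) for medium regions. With 9 to 12 it was 49.8 kb (37.8 to 74 kb) for broad and 42 kb (38.6 to 45 kb) for medium regions, and with 13 or more it was 39 kb (33.4 to 48 kb) for broad and 35.6 kb (32.6 to 38.4 kb) for medium regions. Broad regions had the larger median in each of the 4 classes, yet the intervals overlapped in each. The share with H3K27me3 within 10 kb was lower for broad regions in each of the 4 classes. With 0 to 4 neighbours it was 3.79% (1.63 to 8.56%) for broad and 7.55% (6.96 to 8.18%) for medium regions. With 5 to 8 it was 9.71% (6.15 to 15.0%) for broad and 13.7% (12.6 to 14.8%) for medium regions. With 9 to 12 it was 8.92% (5.39 to 14.4%) for broad and 17.4% (15.9 to 19.0%) for medium regions, the only class in which these intervals stood apart. With 13 or more it was 16.7% (10.9 to 24.6%) for broad and 19.4% (17.3 to 21.8%) for medium regions. This division by neighbour number was made after the pooled values were seen. Members also had to lack H3K27me3 over a greater width than medium regions, so the selection may build in part of these differences. How far it does was not tested.

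H3K4me3 regions next to a broad H3K27me3-free region seldom carried H3K27me3 themselves. The nearest one overlapped H3K27me3 for 16 of 578 (2.77%, 1.71 to 4.45%), against 51.2% (42.5 to 59.9%) for broad regions with H3K27me3, 9.18% (8.72 to 9.66%) for medium regions and 10.2% (9.85 to 10.6%) for narrow ones. The selection builds in part of this contrast. Broad regions with H3K27me3 were chosen for overlapping it, and it covered 52.5% of the first kb beside them. Members also had to lack it over a greater width than medium and narrow regions. Nearer neighbours overlapped less often in every class without H3K27me3, and the broad regions had nearer neighbours. At like distance the gap was smaller. Of neighbours 1 to 5 kb away, 3.36% (2.16 to 5.18%) overlapped H3K27me3 around the broad regions and 5.61% (5.12 to 6.15%) around medium regions. From 5 to 20 kb the share was 6.36% (5.24 to 7.70%) around the broad regions and 10.7% (10.3 to 11.0%) around medium regions, with intervals apart. A neighbour shared by several regions was counted once for each, so these intervals are too narrow. From 20 to 50 kb it was 13.5% around the broad regions and 13.7% around medium ones. All autosomal H3K4me3 regions overlapped H3K27me3 in 18.5%. Over the whole 50 kb the broad regions had the lower share on 14 of 19 autosomes.

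The H3K27me3 regions nearest to the broad ones often overlapped H3K4me3 themselves. Of these nearest regions, 62.6% (58.6 to 66.5%) overlapped some H3K4me3 region, against 59.6% (58.8 to 60.4%) for medium and 58.0% (57.3 to 58.6%) for narrow regions. Of all autosomal H3K27me3 regions 36.9% did so, but that share counts each region once. The other shares count a region once for every H3K4me3 region it is nearest to, so the measures are unlike. The median width of the H3K27me3 regions nearest to the broad ones was 1400 bp, the same as for medium regions.

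The 10 widest members showed how varied the settings were. The widest, 13.8 kb on chromosome 5 (114575201 to 114589000), had 13 other H3K4me3 regions within 50 kb and its nearest H3K27me3 116 kb away. None of the 13 overlapped H3K27me3, and the nearest other member was 427.8 kb away. On chromosome 2 a region of 12.6 kb (162879601 to 162892200) had 7 neighbours and H3K27me3 at 52.6 kb. A region of 12 kb on the same chromosome (116375601 to 116387600) stood alone, with no H3K4me3 for 162.8 kb and no H3K27me3 for 330 kb. On chromosome 9 a region of 12.2 kb (114462201 to 114474400) had 18 neighbours and a second member of 5.4 kb only 2.2 kb away. A region of 12 kb on chromosome 11 (85698401 to 85710400) had H3K27me3 on both sides, at 38 and 25 kb, and 7 of its 10 neighbours overlapped H3K27me3. The others were regions of 11.8 kb (143574201 to 143586000) and 11.6 kb (123583801 to 123595400) on chromosome 5, of 11.2 kb on chromosome 19 (4711001 to 4722200), of 12.8 kb at the start of chromosome 9 (3015201 to 3028000), and of 10.8 kb on chromosome 2 (156664201 to 156675000), the last with H3K27me3 at 136.6 kb. Chromosome 19 held a further member of that same width (4801801 to 4812600, H3K27me3 at 55.2 kb), which comes later in chromosome order and is not counted among the 10. Among these 10, the distance to H3K27me3 ran from 4.4 to 330 kb with a median of 78.5 kb, and 8 had another H3K4me3 region within 10 kb.

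A few members touched H3K27me3 without sharing a base with it. There were 8 such regions, where the H3K4me3 region ended and the H3K27me3 region began at the same 200-bp step, 7 on 1 side and 1 on both. They were 1.38% (0.703 to 2.71%) of members, against 0.669% (0.549 to 0.816%) of medium regions, and the intervals overlapped. The widest of the 8 was a region of 10.4 kb on chromosome 6 (52255601 to 52266000), which abutted an H3K27me3 region on its right and had another 12.8 kb to its left. All 5 of its H3K4me3 neighbours overlapped H3K27me3. A region of 7.2 kb on chromosome 7 (86678001 to 86685200) had 52 kb of H3K27me3 in the 50 kb on each side together, and 8 of its 12 neighbours overlapped it. The others were on chromosome 2 (26356001 to 26360200 and 30325001 to 30331000), on chromosome 10 (43296401 to 43301400) and, for 3 of the 8, near the start of chromosome 11. The rest of the near ones were few: 5 members (0.865%) had H3K27me3 within 1 kb without touching it, and 18 (3.11%) had it between 1 and 5 kb. Of medium regions, 1.06% and 4.64% stood at these distances.

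At the other end, 235 of 578 (40.7%, 36.7 to 44.7%) lay over 100 kb from any H3K27me3, close to the 39.5% of medium and 42.1% of narrow regions. Over 500 kb away lay 33 members (5.71%, 4.09 to 7.91%), against 6.09% of medium and 7.65% of narrow regions. The most distant was a region of 4.6 kb on chromosome 13 (81021801 to 81026400), 2636 kb from H3K27me3. It was followed by 2 regions of 4.2 kb on chromosome 12 (66065401 to 66069600 and 66173801 to 66178000), 2250.4 and 2142 kb away, and then by 1 on chromosome 16 at 1611.8 kb (3231601 to 3237600) and 1 on chromosome 5 at 1535 kb (48373401 to 48378200). These 5 had between 0 and 2 H3K4me3 neighbours within 50 kb, against the median of 8. The region on chromosome 16 had no H3K27me3 region to its left, so its distance was measured on 1 side only.

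Extremes of crowding were found on several chromosomes. A region of 7.2 kb on chromosome 10 (80822201 to 80829400) had 25 neighbours within 50 kb, 5 of which overlapped H3K27me3, which was 15.6 kb away. A region on chromosome 8 (73385401 to 73390400) had 22, and one on chromosome 17 (31431201 to 31435600) had 21 with none overlapping H3K27me3 and none of that mark within 372.2 kb. Several more had 20; the widest of these lay on chromosome 3 (88333201 to 88338000) and chromosome 9 (121242801 to 121247600), and 9 and 0 of their neighbours overlapped H3K27me3. Besides the 12 kb region of chromosome 2, the widest of the 8 without neighbours was found on chromosome 9 (56919201 to 56925600) with a width of 6.4 kb. Chromosome 16 had one of 5.6 kb (38087401 to 38093000), chromosome 18 one of 5 kb (9210401 to 9215400), and chromosome 5 one of 4.8 kb, the region 1535 kb from H3K27me3. The nearest H3K27me3 to any of these 5 was 143.4 kb away.

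Broad H3K27me3-free regions also lay near one another. Another member was within 100 kb for 161 of 578 (27.9%, 24.4 to 31.6%). A member was within 100 kb of 8.13% (4.48 to 14.3%) of broad regions with H3K27me3, of 16.7% (16.1 to 17.3%) of medium regions and of 15.0% (14.5 to 15.4%) of narrow regions. Linked at this distance, the 161 formed 71 runs: 58 pairs, 9 runs of 3, 2 runs of 4 and 2 runs of 5. The gap between linked members had a median of 25 kb (quartiles 7.35 and 49.8 kb), and 4 of 90 gaps were 1 kb or less. Of the 469 intervals between neighbouring H3K27me3 regions that held members, 385 held 1. The remaining 84 held 2 or more, 193 members in all, and the fullest held 6. Intervals were not counted in this way for medium regions, and closeness of members was not compared at like numbers of H3K4me3 neighbours.

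**Figure D4:**
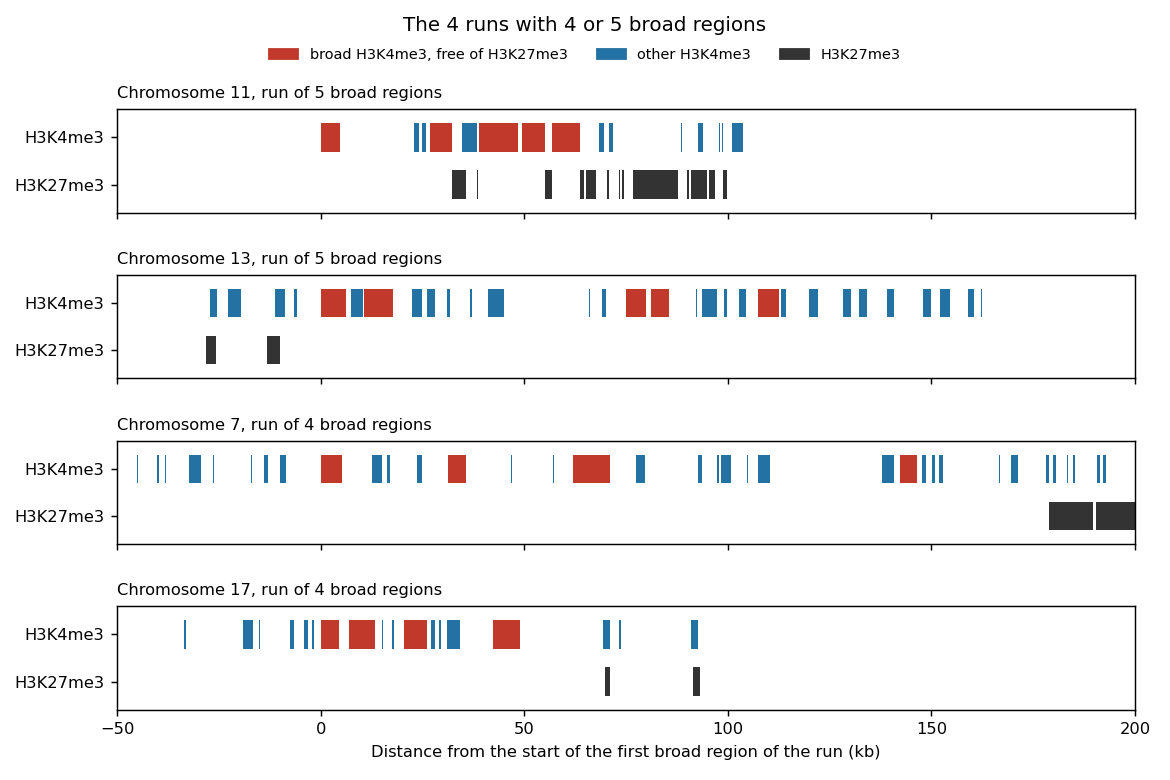
Layout of the 4 runs with 4 or 5 broad H3K27me3-free regions, drawn to scale as distance from the start of the first one (x axis, kb) with 50 kb shown before it. Red bars are members, blue bars other H3K4me3 regions and black bars H3K27me3 regions. The runs on chromosomes 13, 7 and 17 hold no H3K27me3 between their first and last member, and the run on chromosome 11 holds 3 H3K27me3 regions.

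The runs of 5 differed in their relation to H3K27me3. On chromosome 13 (23514401 to 23627000) 5 members of 4.4 to 7.2 kb lay among 17 H3K4me3 regions that covered 42.6% of 112.6 kb. None of the 17 overlapped H3K27me3, and the nearest H3K27me3 was 10 kb outside the run. On chromosome 11 (3000201 to 3064000) 5 members of 4.8 to 9.6 kb covered 51.4% of 63.8 kb, with 3 H3K27me3 regions totalling 5.2 kb set between them, and 3 of the 5 touched H3K27me3.

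Runs of 4 were found on chromosome 7 (52239201 to 52385800, 17 H3K4me3 regions over 146.6 kb) and chromosome 17 (34044801 to 34093800, 10 H3K4me3 regions covering 58.8% of 49 kb). Neither held H3K27me3. The most compact run of 3 or more, chosen after its values were seen, was on chromosome 3 (34537201 to 34564600). There members of 5.8, 6.4 and 4.6 kb took up 61.3% of 27.4 kb, and the nearest H3K27me3 lay 440.8 kb away.

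The start of some chromosomes was rich in members. Before position 3.3 Mb, a bound chosen after the values were seen, 11 of 102 H3K4me3 regions were members (10.8%, 6.13 to 18.3%), against 1.24% of all autosomal regions. They lay on chromosomes 4, 9, 11, 16 and 17, with 6 of the 11 on chromosome 11. None of them started before position 3000201. On chromosome 11, 5 of them formed 1 run, and those on chromosome 9 lay 6 kb apart. The interval takes regions as independent, so it is too narrow here. Without these 11 the medians were 8 neighbours, 2.4 kb to the nearest H3K4me3 region and 69.4 kb to H3K27me3.

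Chromosomes differed in how many members they held. Relative to their H3K4me3 regions, chromosome 19 held the most with 17.8 per 1000 (95% Wilson interval 12.2 to 26.0), followed by chromosome 17 with 17.6 (13.1 to 23.8), chromosome 11 with 16.9 (13.3 to 21.6) and chromosome 7 with 16.7 (12.8 to 21.7). Chromosome 16 held the fewest with 6.68 (3.63 to 12.3), then chromosome 14 with 7.20 (4.13 to 12.5) and chromosome 18 with 7.80 (4.36 to 13.9). The average was 12.4, and it lay outside the intervals of chromosomes 7, 11, 16 and 17. By length the range was wider, at 51.7 per 100 Mb on chromosome 11 (63 members) and 9.59 on chromosome 14 (12 members). Among broad regions as a whole, chromosome 19 had 26 of 27 free of H3K27me3 and chromosome 18 had 11 of 21.

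**Figure D5:**
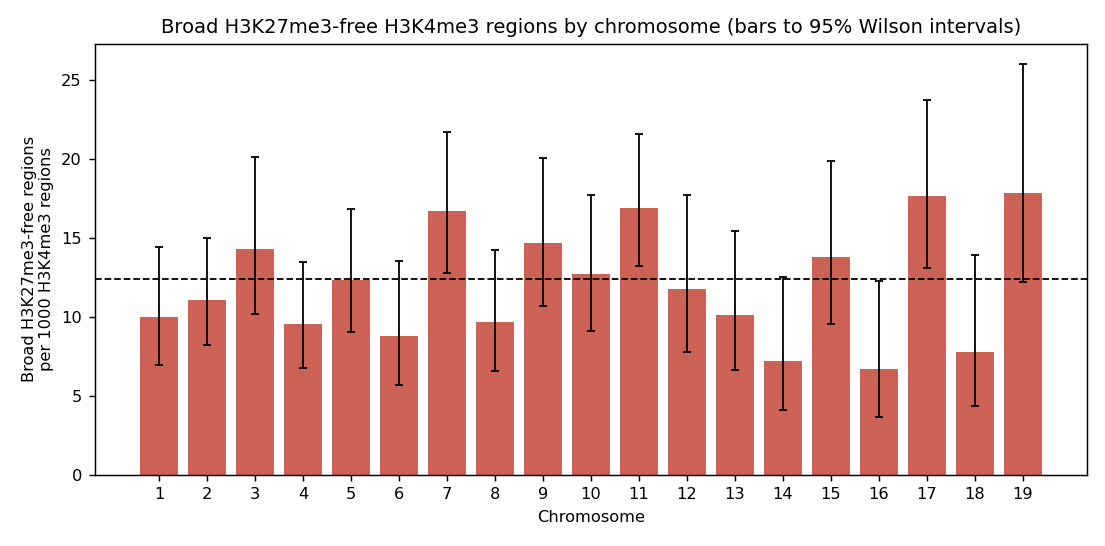
Broad H3K27me3-free regions per 1000 H3K4me3 regions (y axis) on each autosome (x axis), with 95% Wilson intervals as error bars and the average of 12.4 as a dashed line. Chromosomes 7, 11, 17 and 19 stand highest at 16.7 to 17.8, and chromosomes 14, 16 and 18 lowest at 6.68 to 7.80.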

How the data were processed

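Fixation was for 10 min in 0.25% formaldehyde, each precipitation had 2.4 µg of antibody, and amplification took 20 cycles for precipitated DNA, per the labels' protocols. Bowtie 0.12.7 and mm9 are named in the submitters' processing notes. For each mark the authors deposited 1 list of contiguous ChromHMM regions, per the file names, with chromosome, start, end and name, and positions in bp on a 200-bp grid. Not given in the sources used here are the ChromHMM settings, the use of input and the handling of replicates. Depth is unknown.

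Regions overlapped when they shared at least 1 bp. Distances ran edge to edge, and neighbours were regions with a base within 50 kb. X, Y and the mitochondrial genome were left out. Chromosome lengths came from GenomeInfoDb 1.38.1; all 19 autosomes ended inside their mm9 lengths. Named regions were the 10 widest, the nearest (all 8 at distance 0) and the 5 farthest from H3K27me3, those with most and no neighbours (the 5 widest on ties) and the largest runs. Members and rules were chosen with earlier results of these data known. Planned gene lists and cell type markers were not analysed here, since they need an mm9 annotation. Calculations were tested on simulated data. Tools were scipy 1.17.1, pandas 2.3.3, numpy 2.4.6 and matplotlib 3.10.9 under Python 3.11.15.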

Additional observations from a re-analysis of the deposited data

How the results depend on the processing

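Settings that left out members before 3.3 Mb or neighbours within 5 kb were chosen after seeing the data. Of 52 values under alternatives for 9 results, 32 stayed alike and 20 moved; alike means inside the 95% interval of a share or median, or within 1.5 times a count, mean or ratio. At a minimum of 5000 bp there were 307 members, the nearest H3K4me3 region lay 1.8 kb away, and 18.6% had another member within 100 kb. With H3K4me3 regions less than 1 kb apart joined, 75.4% of broad regions were free of H3K27me3, and the values were 7 neighbours, 3.2 kb and 38.3%. Windows of 20 and 200 kb gave 4 and 25 neighbours, 5.23% and 15.6% of them overlapping H3K27me3, and 0.776 and 22.0 kb of H3K27me3 (3.53 kb at 50 kb). 2 alternatives turned the order against medium regions: free of H3K27me3 were 75.4% against 77.0% when joined (82.5% against 76.5% as listed), and H3K27me3 length was 0.776 against 0.929 kb at 20 kb (3.53 against 3.20 kb at 50 kb). Without neighbours of 400 bp or less there were 5, at 4.8 kb, 11.2% overlapping. Without those within 5 kb there were 7, 10.8% overlapping. Linking at 50 and 200 kb gave 21.8% and 39.4%. Wider windows and fewer regions move such values by construction; other causes were not tested. Members had more and nearer H3K4me3 neighbours than medium regions in all 8 and all 5 alternatives run. How far depth limits the lists is unknown. No paired analysis was possible because each mark has 1 list, and for the same reason no replicate could be left out.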
